A study of Mus musculus with 15 samples.

Results

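Complement genes were followed in primary astrocytes from mouse brain through 8 members of the pathway, chosen by symbol. These were the proteases and components C1s1, C4b, C3 and Cfb, the regulators Serping1 and Cd55, and the receptors C3ar1 and C5ar1. All 8 were present among the 25748 gene symbols of the count files, and all 8 passed the filter on low counts that left 15362 genes for testing. The study sequenced polyadenylated RNA in 15 libraries, 5 in each of 3 groups. In the Rg1 plus LPS group the cells were given 80 µM ginsenoside Rg1, a saponin of ginseng, for 12 h, and after that 1 µg/mL lipopolysaccharide (LPS, the endotoxin of Gram-negative bacteria) for 6 to 8 h. The LPS group, which the submitters call SCI, was given the same LPS dose without Rg1, and the control group was given neither. No strain, age or genotype is given in the sources used here, and no group with Rg1 but without LPS was analysed here.

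Complement is a cascade of plasma and locally made proteins that tags targets and recruits phagocytes. In the classical pathway, C1q bound to a target activates the proteases C1r and C1s, which cleave C4 and C2 to form a C3 convertase. In the alternative pathway, factor B (Cfb) bound to C3b forms a further C3 convertase. Cleavage of C3 and C5 releases the small peptides C3a and C5a, which are sensed by the receptors C3ar1 and C5ar1 on myeloid and other cells. In brain, astrocytes are a known source of C3, and C3 RNA is used as a marker of reactive astrocytes.

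Library totals were 36.2 to 41.1 M counts in the Rg1 plus LPS group, 34.2 to 41.8 M in the LPS group and 34.3 to 39.0 M in controls. All 8 astrocyte markers checked were detected in every group, among them Gfap at 2849 CPM in the LPS group on average (counts per M of the scaled library size). Some libraries stood apart from others of their group. LPS replicate 3 had the highest CPM of its group for 7 of the 8 complement genes, and control replicate 4 had the highest of its group for 7 of 8. Rg1 plus LPS replicate 1 was the lowest of its group for 7 of 8, with replicate 4 next to it in those 7. The summed CPM of the 8 astrocyte markers was 9274 in LPS replicate 3 and 7029 in LPS replicate 2, against 5274 to 5317 in the other LPS libraries. It was 5933 to 9187 in the Rg1 plus LPS libraries and 8036 to 10340 in controls, with the highest value in control replicate 4. Of these 8 markers, 4 fell and none rose in LPS against control in edgeR (median log2 fold change -0.52). Among all genes tested there, 9.82% fell and 13.8% rose. The transcription factor Sox9 fell by 1.46 ± 0.123 (edgeR adjusted p = 1.63e-07). In Rg1 plus LPS against LPS 4 markers rose and 1 fell (median 0.23), beside 22.2% higher and 23.2% lower among all genes. In Rg1 plus LPS against control 3 markers fell (median -0.44), beside 18.1% lower among all genes. The summed CPM of 5 fibroblast and meningeal markers was 1739 in Rg1 plus LPS replicate 1 and 2424 in replicate 4, against 3693 to 5207 in the other Rg1 plus LPS libraries, 3851 to 5270 in LPS and 3551 to 4666 in control libraries. The endothelial markers summed to 88.3 to 103.5 CPM in Rg1 plus LPS, 135.8 to 173 in LPS and 121.3 to 145.7 in control libraries. Cdh5 made up most of that sum, while Cldn5 had 2 counts over the Rg1 plus LPS libraries, 3 over LPS and 0 over controls. The part of these differences in the results was not tested. Values without these libraries stand beside the results they change.

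The 8 genes spanned a wide range of expression. Per unit of gene length, C3 was the highest of the 8 in every group and C5ar1 the lowest. In FPKM (fragments per kilobase of gene and per M of counted fragments), C3 averaged 88.0 ± 31.0 in Rg1 plus LPS, 95.3 ± 52.7 in LPS and 98.6 ± 24.2 in control libraries (SD, n = 5 each). Serping1 followed with 57.0 ± 20.6 FPKM in Rg1 plus LPS, 61.2 ± 24.2 in LPS and 78.5 ± 18.4 in control libraries, and its range overlapped that of C3 in each group. C1s1 averaged 13.3 ± 3.65, 16.2 ± 7.18 and 21.5 ± 3.75 FPKM in the same 3 groups, and C4b averaged 10.7 ± 3.44, 8.63 ± 4.08 and 13.0 ± 2.91 FPKM. The ranges of C1s1 and C4b overlapped in Rg1 plus LPS and in LPS libraries, but not in controls.

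A gap separated these 4 genes from the others. C3ar1, the receptor of C3a, averaged 1.10 ± 0.385 FPKM in Rg1 plus LPS, 2.39 ± 0.248 in LPS and 1.57 ± 0.385 in control libraries. Cd55, a membrane regulator that speeds the decay of the convertases, averaged 0.759 ± 0.183, 1.01 ± 0.078 and 0.940 ± 0.118 FPKM in the same groups. Cfb averaged 0.391 ± 0.214 FPKM in Rg1 plus LPS, 1.46 ± 1.08 in LPS and 0.731 ± 0.328 in control libraries. C5ar1, the receptor of C5a, averaged 0.0666 ± 0.0376 FPKM in Rg1 plus LPS, 0.807 ± 0.440 in LPS and 0.199 ± 0.125 in control libraries. The order of Cfb and Cd55 differed between groups, and their ranges overlapped in all 3. In LPS libraries C3ar1, Cfb, Cd55 and C5ar1 each overlapped the next in the order, whereas in Rg1 plus LPS libraries C5ar1 lay below every Cfb value.

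**Figure D1:**
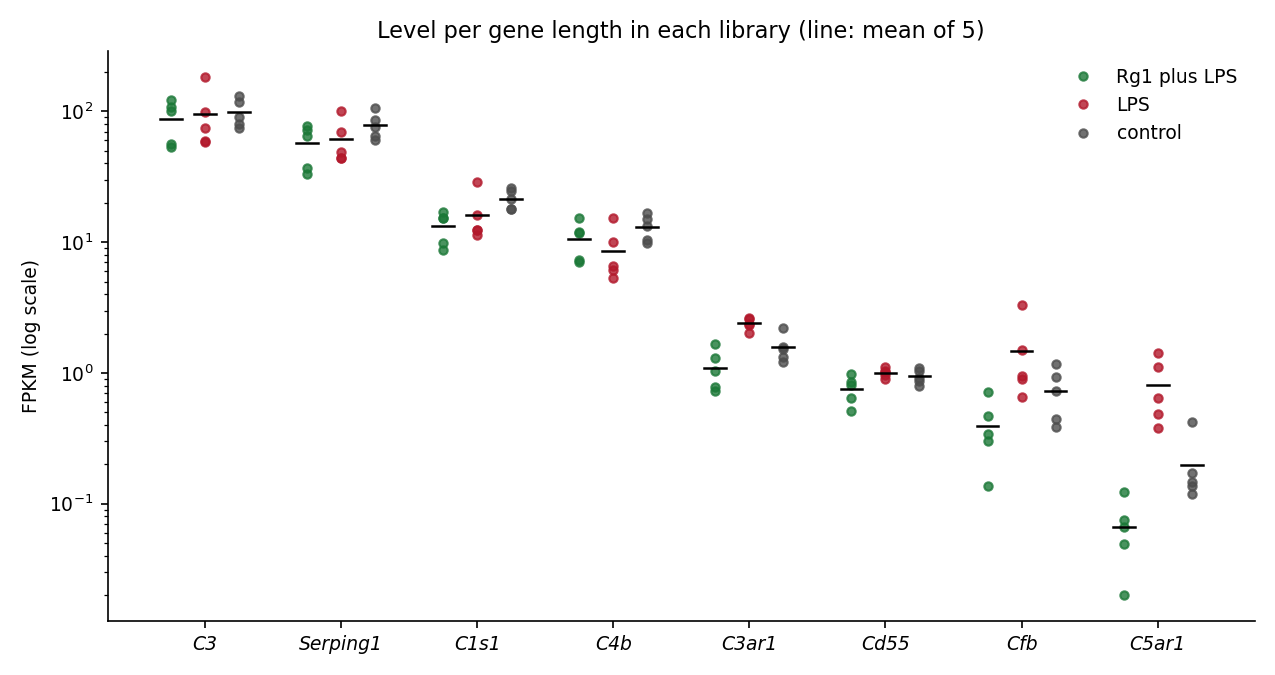
Levels of the 8 complement genes in FPKM on a log axis, with a point for each library and the group mean, for the Rg1 plus LPS, LPS and control groups. C3 and Serping1 lie highest, C1s1 and C4b next, and C5ar1 lies lowest, averaging 0.0666 FPKM in the Rg1 plus LPS group.

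Both receptors rose in LPS against control libraries, and the other 6 genes did not pass the test. C5ar1 rose by 2.07 ± 0.44 on the log2 scale (adjusted p = 0.00255) and C3ar1 by 0.65 ± 0.206 (adjusted p = 0.0306), both ± SE in edgeR's quasi-likelihood test with Benjamini-Hochberg adjustment over all genes. Thus 2 of 8 complement genes passed at an adjusted p under 0.05, both upwards, beside 13.8% of all genes tested that passed as higher and 23.7% that passed in either direction. For none of the 8 were the LPS and control groups free of overlap, beside 20.4% of all genes. Adding Rg1 before LPS gave 4 of 8 lower than LPS alone, namely C5ar1, C3ar1, Cfb and Cd55. None was higher in edgeR, in DESeq2, in limma voom or at an unadjusted p under 0.05 (0 of 8). Here 23.2% of all genes tested passed as lower and 45.4% in either direction, and 2 of 8 groups did not overlap, beside 27.5% of all genes. Against controls, Rg1 plus LPS had 3 of 8 lower, namely C1s1, C3ar1 and C5ar1, beside 18.1% of all genes lower and 36.9% in either direction. The groups did not overlap for 2 of these 8, beside 26.2% of all genes. Leaving out 1 library moved the count for LPS against control to 1 (LPS replicate 1 or 2, or control replicate 1, 2, 3 or 5) or to 3 (LPS replicate 3). For Rg1 plus LPS against control, leaving out 1 library gave counts from 0 to 4. The count was 4 without control replicate 3, where Cd55 also passed, and 1 without Rg1 plus LPS replicate 1 or 4. It was 0 without control replicate 4 (edgeR adjusted p = 0.0637 for C1s1, 0.128 for C3ar1 and 0.0857 for C5ar1).

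The median log2 fold change over the 8 genes was -0.46 in Rg1 plus LPS against LPS, 0.07 in LPS against control and -0.55 in Rg1 plus LPS against control. The medians over all genes tested were 0.03, -0.00 and 0.01 in the same order. The first 2 comparisons share the LPS libraries, and both comparisons with controls share the control libraries. Nothing in the labels ties the 5 libraries of a group to separate cultures or mice, so the p-values speak only of spread among these samples, which may be technical. In bulk RNA, fewer cells of a type and less RNA per cell cannot be told apart.

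**Figure D2:**
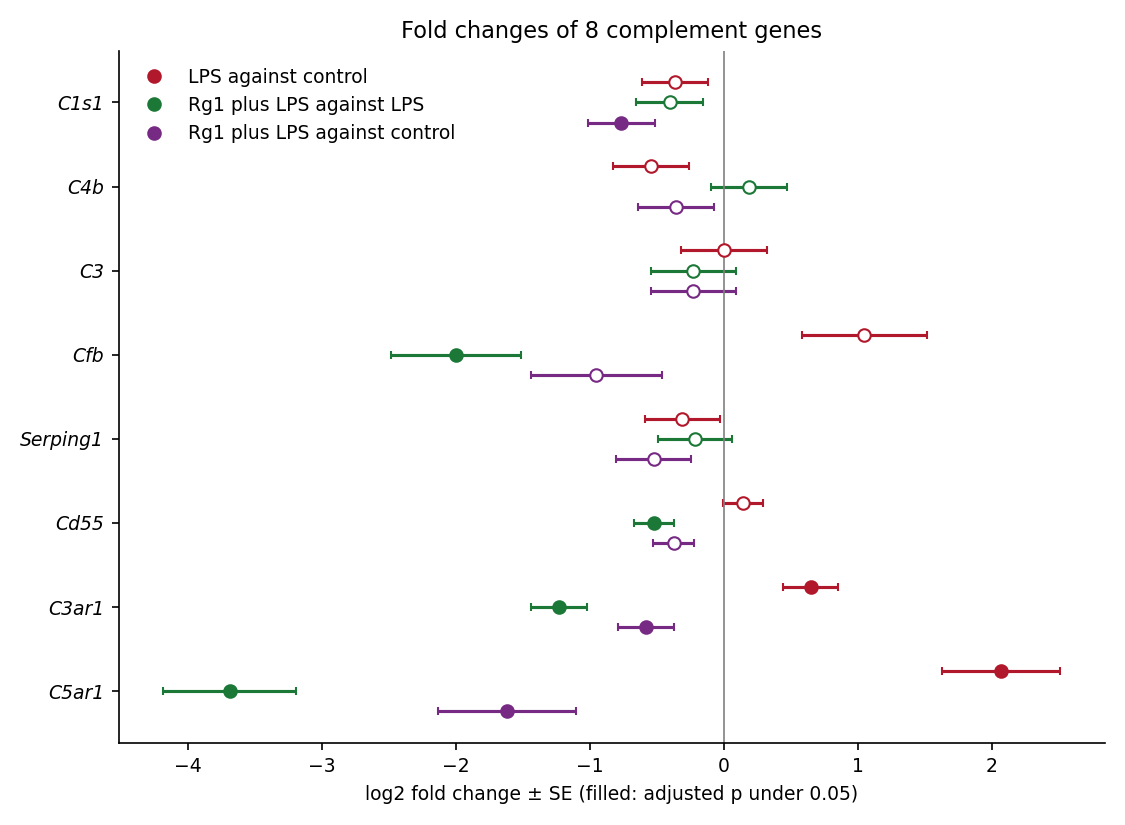
Log2 fold change of the 8 complement genes (points, with bars for the SE, filled where the adjusted p is under 0.05) in the 3 comparisons, where 0 is no difference. C5ar1 lies farthest from 0 in each comparison, at -3.69 for Rg1 plus LPS against LPS and at 2.07 for LPS against control, whereas C3 lies within its SE of 0 in all 3.

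The classical pathway protease C1s1 lies at chr6:124530344-124542392 (all positions are in GRCm38.p6). Its normalised read counts were 25.9, 45.7, 49.6, 29.6 and 46.5 CPM in the Rg1 plus LPS libraries (replicates 1 to 5), against 36.8, 52.1, 93.4, 38.7 and 40.4 CPM in LPS libraries. Control libraries held 55.9, 76.7, 65.5, 80.9 and 56.9 CPM. Every Rg1 plus LPS library lay below every control library, and among LPS libraries only replicate 3 lay above the range of the controls. C1s1 fell in Rg1 plus LPS against control by 0.77 ± 0.25 on the log2 scale (adjusted p = 0.0251). This call was lost without Rg1 plus LPS replicate 1 (-0.65, adjusted p = 0.0546), Rg1 plus LPS replicate 4 (-0.68, 0.0659), control replicate 2 (-0.715, 0.0569) or control replicate 4 (-0.69, 0.0637), and with no filter on low counts (-0.79, 0.0648). The difference was -0.40 ± 0.249 for Rg1 plus LPS against LPS (adjusted p = 0.204) and -0.36 ± 0.248 for LPS against control (adjusted p = 0.314). Without LPS replicate 3, C1s1 passed as lower in LPS than in control libraries, at -0.69 (adjusted p = 0.0119).

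C1s1 has a near-identical neighbour, C1s2, at chr6:124624625-124636085, and 7.90% of the 100-base windows of a C1s1 transcript also occur in C1s2. Reads from such windows could have been counted for either gene. C1s2 averaged 3.05 ± 0.979 CPM in Rg1 plus LPS, 4.73 ± 2.38 in LPS and 6.36 ± 1.45 in control libraries. It fell in Rg1 plus LPS against control by 1.06 ± 0.298 on the log2 scale (adjusted p = 0.0112), without overlap of the groups.

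C4b, the complement component that C1s cleaves, lies at chr17:34728139-34743902 within the major histocompatibility region. It had 37.0, 61.8, 78.8, 38.7 and 63.8 CPM in Rg1 plus LPS libraries, against 30.1, 56.9, 87.5, 36.2 and 35.3 CPM in LPS libraries. Controls held 57.1, 82.5, 72.5, 91.5 and 55.7 CPM. In the LPS group, 3 libraries lay below every control and replicate 3 lay above 4 of the controls. None of the comparisons passed for C4b over all libraries. LPS against control gave -0.55 ± 0.284 (adjusted p = 0.178), Rg1 plus LPS against LPS 0.19 ± 0.283 (0.617) and Rg1 plus LPS against control -0.36 ± 0.283 (0.344). The difference between LPS and control passed without LPS replicate 3 (-0.87, adjusted p = 0.0133). Without LPS replicates 2 and 3 it was -1.09 (adjusted p = 0.00452), and C4b was then higher in Rg1 plus LPS than in LPS by 0.72 (adjusted p = 0.0257). These libraries were left out after the data were seen. Its near-identical copy C4a, at chr17:34809092-34823460, was not analysed here, so the counts of C4b may be uncertain where the copies share sequence.

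C3, on which all complement pathways converge, lies at chr17:57203967-57228136. It held 266, 499.8, 597, 284 and 554 CPM in Rg1 plus LPS libraries, 316, 538, 1010, 394 and 321 CPM in LPS libraries, and 473, 678, 610, 394 and 424 CPM in controls. LPS libraries covered the widest range, with replicate 3 above all other libraries of the study and replicates 1 and 5 below all controls. The mean levels of LPS and control libraries were nearly equal, at 0.00 ± 0.318 apart on the log2 scale (adjusted p = 0.999). The 95% interval of that difference ran from -0.69 to 0.69, so a change within that range was not detectable at this spread. Rg1 plus LPS gave -0.23 ± 0.318 against LPS (adjusted p = 0.588) and -0.23 ± 0.318 against control (adjusted p = 0.61). Without LPS replicate 3, C3 stood at -0.40 in LPS against control (adjusted p = 0.243) and at 0.17 in Rg1 plus LPS against LPS, again without passing.

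Cfb, the protease of the alternative convertase, lies at chr17:34856374-34862514. It held 0.362, 1.24, 0.890, 0.798 and 1.93 CPM in Rg1 plus LPS libraries, against 1.88, 4.31, 9.62, 2.54 and 2.73 CPM in LPS libraries. Control libraries held 1.24, 2.57, 2.00, 3.25 and 1.09 CPM. LPS replicate 3 had the highest value of all 15 libraries, and Rg1 plus LPS overlapped LPS only between Rg1 plus LPS replicate 5 and LPS replicate 1. Cfb fell in Rg1 plus LPS against LPS by 2.0 ± 0.486 on the log2 scale (4.01 times lower, adjusted p = 0.00333). Without LPS replicate 3 the fall was -1.45 and still passed. LPS against control gave 1.05 ± 0.466 (adjusted p = 0.115), or 0.49 without LPS replicate 3, and Rg1 plus LPS against control gave -0.95 ± 0.488 (adjusted p = 0.139).

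**Figure D3:**
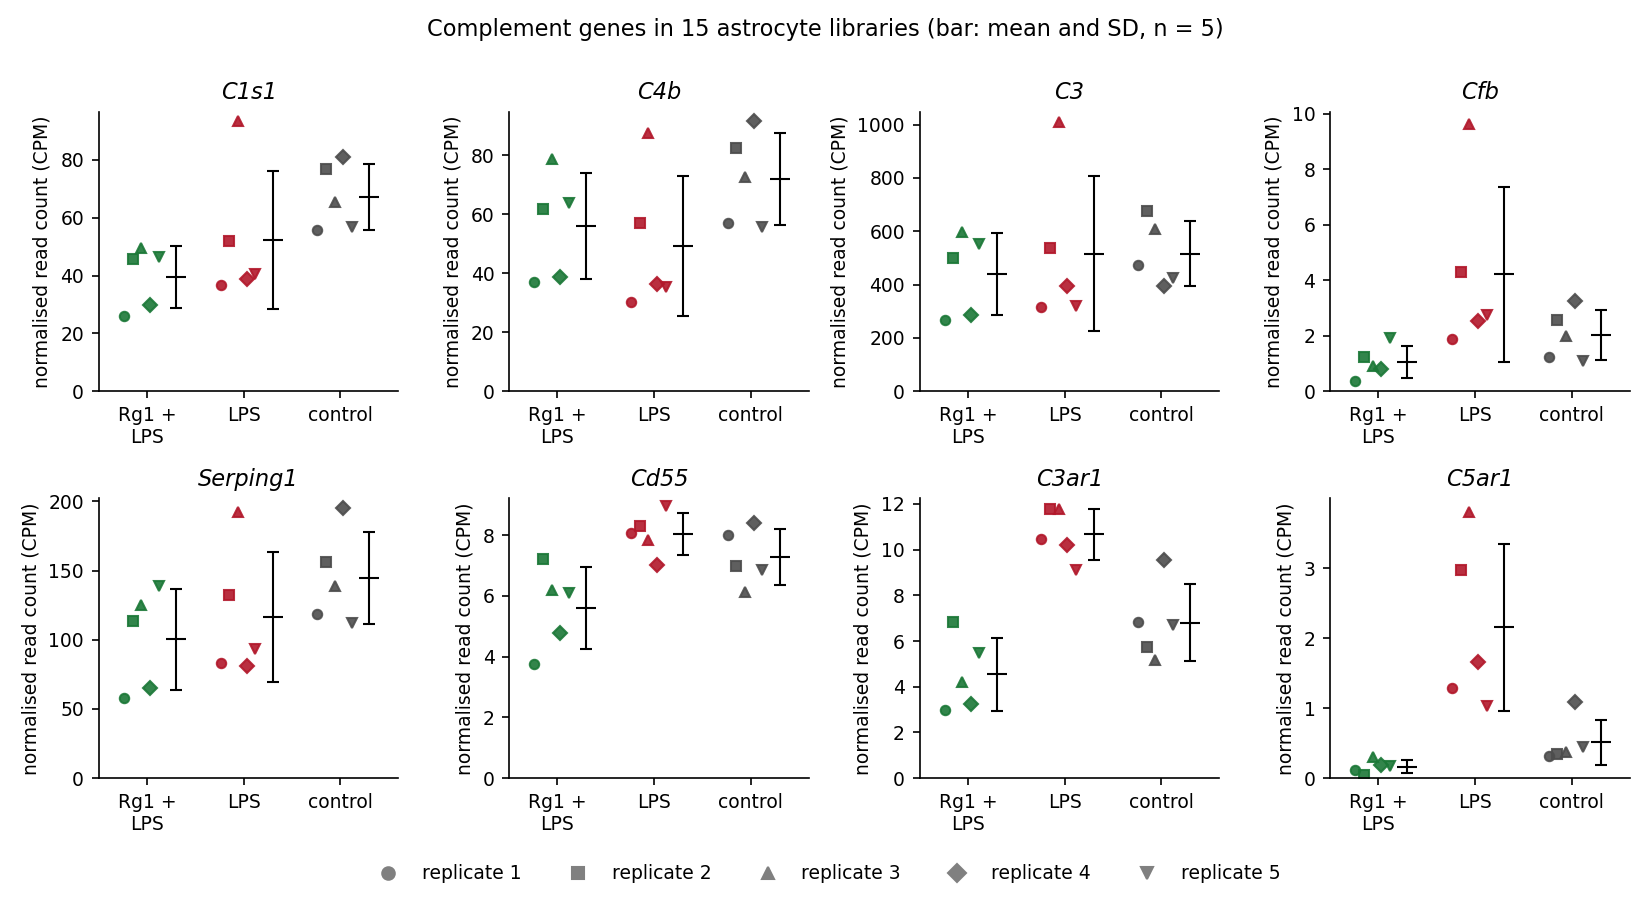
Normalised read counts (CPM, linear axis) of the 8 complement genes in each of the 15 libraries, with marks by replicate number and bars for the mean and SD (n = 5). C3ar1 and C5ar1 lie lower in every Rg1 plus LPS library than in any LPS library, and LPS replicate 3 tops its group for 7 of the 8 genes.

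Among regulators, Serping1 encodes C1 inhibitor, which blocks C1r and C1s, and lies at chr2:84765360-84775444. It held 57.8, 114, 125, 65.3 and 139 CPM in Rg1 plus LPS libraries, against 83.4, 132, 192, 81.1 and 93.6 CPM in LPS libraries. Control libraries held 119, 156, 139, 195 and 112 CPM. The 3 groups overlapped, with 3 LPS libraries below every control. None of the comparisons passed: Rg1 plus LPS gave -0.22 ± 0.278 against LPS (adjusted p = 0.555), LPS gave -0.31 ± 0.278 against control (0.449) and Rg1 plus LPS gave -0.525 ± 0.278 against control (0.154). Without LPS replicates 2 and 3, Serping1 passed as lower in LPS than in control libraries, at -0.75 (adjusted p = 0.0486).

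Cd55 lies at chr1:130429798-130465009. It held 3.74, 7.22, 6.18, 4.79 and 6.08 CPM in Rg1 plus LPS libraries, against 8.07, 8.30, 7.84, 7.03 and 8.94 CPM in LPS libraries. Controls held 8.01, 6.99, 6.12, 8.40 and 6.84 CPM. All Rg1 plus LPS libraries except replicate 2 lay below every LPS library. Cd55 fell in Rg1 plus LPS against LPS by 0.52 ± 0.151 on the log2 scale (adjusted p = 0.00983). With a correction for gene length in each library, that difference was -0.33 (adjusted p = 0.104) and did not pass. LPS against control gave 0.145 ± 0.15 (adjusted p = 0.515), and Rg1 plus LPS against control gave -0.375 ± 0.151 (adjusted p = 0.0609). That difference passed without Rg1 plus LPS replicate 2 (-0.48, adjusted p = 0.0195) or control replicate 3 (-0.43, 0.0484). It also passed over all libraries in DESeq2 (-0.39, adjusted p = 0.0315) and in limma voom (-0.40, 0.0492). Its copy Cd55b, which shares 6.86% of the 100-base windows of Cd55, had 1 count in all 15 libraries together.

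C3ar1, at chr6:122847140-122856157, held 2.97, 6.82, 4.20, 3.25 and 5.48 CPM in Rg1 plus LPS libraries, against 10.5, 11.8, 11.8, 10.2 and 9.12 CPM in LPS libraries. Control libraries held 6.85, 5.72, 5.18, 9.54 and 6.70 CPM. All LPS libraries lay above all Rg1 plus LPS libraries, and 4 of 5 controls lay below every LPS library. C3ar1 fell in Rg1 plus LPS against LPS by 1.23 ± 0.209 on the log2 scale (2.34 times lower, adjusted p = 0.000174). This call held under all 20 alternatives tried, at -1.41 to -1.11. The rise in LPS against control (0.65 ± 0.206, 1.57 times) lay nearer the threshold. It was lost without LPS replicate 1, 2 or 3 (adjusted p = 0.0537, 0.0641 and 0.051) and without control replicate 1, 2, 3 or 5 (0.0539, 0.0760, 0.0823 and 0.0609), at 0.57 to 0.66. Without LPS replicates 2 and 3, left out after the data were seen, the rise did not pass either (edgeR adjusted p = 0.109). Rg1 plus LPS was also below control, by 0.58 ± 0.209 on the log2 scale (adjusted p = 0.0394). That call was lost without Rg1 plus LPS replicate 1, 3 or 4 (adjusted p = 0.0846, 0.0752 and 0.102) or control replicate 1, 4 or 5 (0.0657, 0.128 and 0.0583). It was also lost with library size only (-0.51, 0.0601), with a correction for gene length (-0.55, 0.0555) and with only the 2 groups compared in the fit (-0.57, 0.0757). The same held without LPS replicate 3 and control replicate 4 together, left out after the data were seen.

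C5ar1, at chr7:16246743-16259540, held 0.121, 0.0496, 0.297, 0.186 and 0.167 CPM in Rg1 plus LPS libraries, against 1.29, 2.98, 3.81, 1.67 and 1.03 CPM in LPS libraries. Controls held 0.310, 0.352, 0.374, 1.08 and 0.449 CPM. These values rest on 33 counts over the 5 Rg1 plus LPS libraries, 382 over the LPS libraries and 92 over controls. Every Rg1 plus LPS library lay below every library of the other groups, and LPS overlapped control only through control replicate 4. C5ar1 fell in Rg1 plus LPS against LPS by 3.69 ± 0.495 on the log2 scale (12.9 times lower, adjusted p = 1.7e-05) and rose in LPS against control by 2.07 ± 0.44 (4.19 times, adjusted p = 0.00255). Both calls held under all 20 alternatives, at -3.99 to -3.00 and at 1.37 to 2.52. Rg1 plus LPS was below control by 1.62 ± 0.518 (adjusted p = 0.0217). That last call was lost without Rg1 plus LPS replicate 2 (-1.39, adjusted p = 0.0522) or control replicate 4 (-1.16, adjusted p = 0.0857), and in limma voom (-1.59, adjusted p = 0.0652). It was lost too without LPS replicate 3 and control replicate 4 together, left out after the data were seen.

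Both receptors moved the same way in these comparisons whereas C3 did not pass in any, and the bases upstream of their starts were set side by side. The 250 bases before the start are shown from RefSeq windows in GRCm38.p6, for C3 at chr17:57228137-57228386, C3ar1 at chr6:122856158-122856407 and C5ar1 at chr7:16259339-16259588, each on the minus strand. They read 5′ to 3′ in lower case, with capitals for the match found.
C3: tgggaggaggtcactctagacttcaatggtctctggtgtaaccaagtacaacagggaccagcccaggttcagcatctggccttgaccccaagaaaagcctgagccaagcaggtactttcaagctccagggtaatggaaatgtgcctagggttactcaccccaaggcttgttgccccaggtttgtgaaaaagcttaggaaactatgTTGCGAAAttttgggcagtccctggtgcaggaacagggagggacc
C3ar1: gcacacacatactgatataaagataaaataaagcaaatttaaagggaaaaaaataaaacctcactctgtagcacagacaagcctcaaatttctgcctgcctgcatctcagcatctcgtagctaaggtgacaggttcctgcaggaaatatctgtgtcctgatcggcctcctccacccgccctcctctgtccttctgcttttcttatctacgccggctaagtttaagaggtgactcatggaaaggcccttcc
C5ar1: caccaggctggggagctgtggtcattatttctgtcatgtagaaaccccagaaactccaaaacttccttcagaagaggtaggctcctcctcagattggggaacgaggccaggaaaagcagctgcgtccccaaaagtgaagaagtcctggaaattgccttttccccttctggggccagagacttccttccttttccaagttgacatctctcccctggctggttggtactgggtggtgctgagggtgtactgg
Windows of 300 bases (250 before and 50 after the start) were searched on both strands for an NF-kB site, a GAS element (TTCNNNGAA), an ISRE core and a C/EBP core (TTGCNNAA). The capitals in C3 mark a C/EBP core from base -45 to base -38 before the start, and such a core occurred in 10.8% of all 32851 windows. The C3ar1 and C5ar1 windows held none of the 4 motifs. An NF-kB site occurred in 8.46% of all windows, a GAS element in 8.30% and an ISRE core in 3.44%. Of the 8 genes, 5 had a RefSeq window here (C1s1, C3, Cd55, C3ar1 and C5ar1), with 6 windows in all. The only other match was a C/EBP core in a C1s1 window. These letters describe the windows and say nothing about binding. C4b, Cfb and Serping1 were not searched.

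The ratio of 2 genes within a library barely depends on library scaling. The log2 ratio of C4b over C3 was -2.84, -3.02, -2.92, -2.88 and -3.12 in Rg1 plus LPS libraries, against -3.39, -3.24, -3.53, -3.44 and -3.18 in LPS libraries. In control libraries it was -3.05, -3.04, -3.07, -2.10 and -2.93. All 5 LPS libraries lay below all libraries of both other groups. The ratio averaged -2.95 ± 0.111 in Rg1 plus LPS and -3.36 ± 0.143 in LPS libraries (SD, n = 5 each), a difference of 0.40 (p = 0.00794, adjusted 0.0357, exact permutation test, two-sided). LPS differed from control, at -2.84 ± 0.414, by -0.52 (exact permutation p = 0.00794, adjusted 0.0357), and by -0.34 without control replicate 4. Adjustment was over 9 ratio tests, and 0.00794 is the smallest p that 5 against 5 libraries allow. Rg1 plus LPS and control differed by -0.12 (exact permutation p = 0.849).

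Ratios of the other pairs did not separate the groups. C1s1 over Serping1 averaged -1.30 ± 0.179 in Rg1 plus LPS, -1.17 ± 0.121 in LPS and -1.09 ± 0.111 in control libraries. Its difference between Rg1 plus LPS and control was -0.215 (exact permutation p = 0.0476, adjusted 0.143, n = 5 each). C3 over Cd55 averaged 6.24 ± 0.294 in Rg1 plus LPS, 5.85 ± 0.733 in LPS and 6.11 ± 0.475 in control libraries, and no difference passed. LPS libraries ranged from 5.16 to 7.00, with the top in replicate 3.

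**Figure D4:**
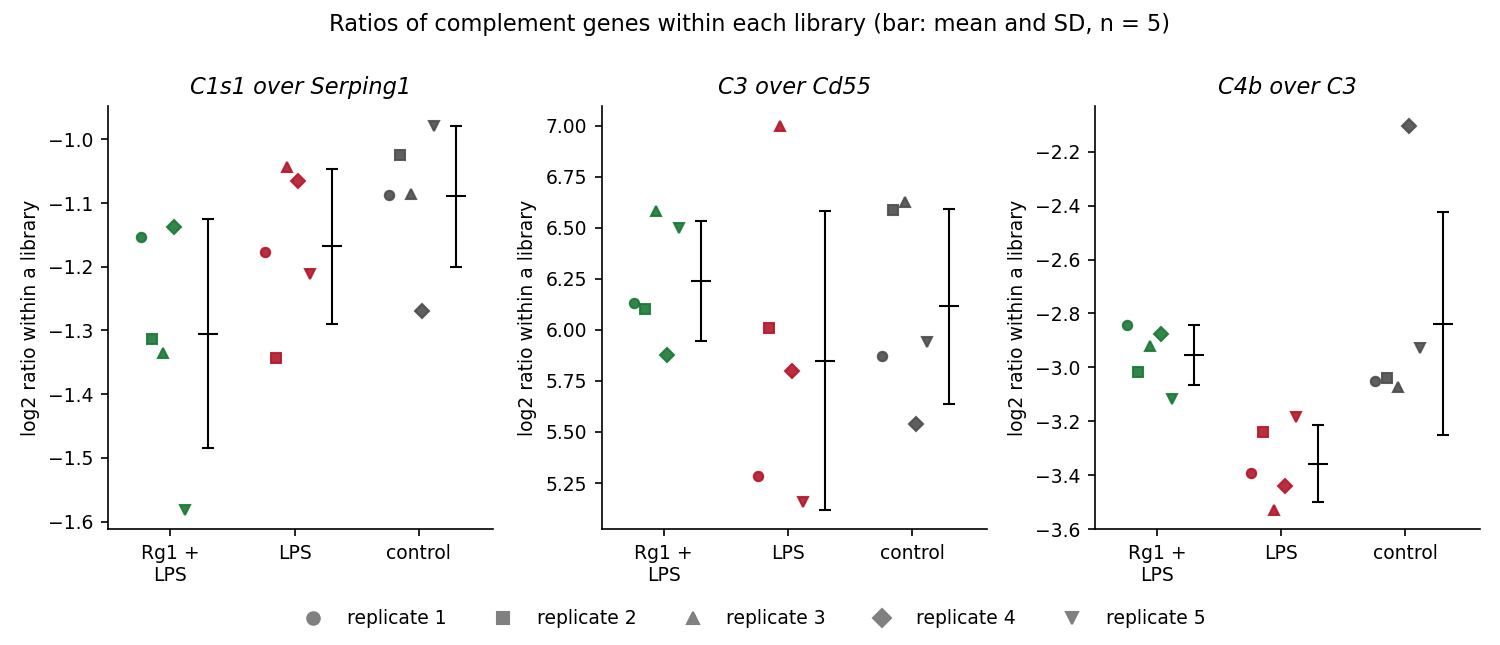
Log2 ratios of C1s1 over Serping1, C3 over Cd55 and C4b over C3 within each library, with marks by replicate number and bars for the mean and SD (n = 5). For C4b over C3, all 5 LPS libraries lie below all Rg1 plus LPS and control libraries, and control replicate 4 stands alone at -2.10.

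A list of 49 other complement genes placed these members among the rest of the pathway. The files held 45 of them, and 29 passed the filter on low counts. C4a, Fcnb, Cfd and C8b were not analysed here. In Rg1 plus LPS against LPS, 11 of 29 fell and 2 rose, beside the 23.2% lower and 22.2% higher among all genes. In LPS against control 1 fell and none rose in edgeR, beside 9.82% of all genes that passed as lower. Before adjustment 2 were higher at p under 0.05. DESeq2 called 1 gene higher and limma voom called 0. In Rg1 plus LPS against control 9 fell and 1 rose, beside 18.1% lower and 18.8% higher among all genes. The median log2 fold change over the 29 was -0.48, -0.11 and -0.52 in the same order. The count for LPS against control rose to 6 without LPS replicate 3, to 4 without control replicate 4 and to 2 without LPS replicate 2.

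All 4 receptor genes tested fell in Rg1 plus LPS against LPS, beside 23.2% of all genes. For none of the 4 did the groups overlap, beside 27.5% of all genes without overlap. Itgax and Cd93 among them passed the filter on low counts only because of their LPS values. Their falls and lack of overlap were thus partly fixed by the filter, which limits what the count of 4 shows. Itgax had 30 counts over the Rg1 plus LPS libraries, 99 over LPS and 61 over controls. Of the 7 receptor genes listed, C5ar2, Cr2 and Vsig4 did not pass the filter on low counts. Itgam, the alpha chain of complement receptor 3, held 0.459, 0.620, 0.791, 0.612 and 0.262 CPM in Rg1 plus LPS libraries, against 2.21, 4.28, 7.01, 2.99 and 1.78 CPM in LPS libraries. Controls held 1.81, 1.33, 1.79, 4.39 and 1.51 CPM. Its LPS values were highest in replicates 3 and 2 and its control values in replicate 4. Itgam fell by 2.73 ± 0.433 on the log2 scale against LPS (adjusted p = 9.89e-05) and by 1.97 ± 0.433 against control (adjusted p = 0.00215). Its partner chain Itgb2 fell by 1.97 ± 0.418 against LPS (adjusted p = 0.00123). Cd93, a cell surface protein once described as a C1q receptor, fell by 2.97 ± 0.595 against LPS and by 2.43 ± 0.609 against control (adjusted p = 0.000695 and 0.00524), on 15 counts over the Rg1 plus LPS libraries, 110 over LPS and 75 over controls.

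Of the classical pathway genes, 7 were tested, and the 3 that fell in Rg1 plus LPS against LPS were the C1q chains C1qa, C1qb and C1qc. Among all genes, 23.2% passed as lower there. C1qc held 1.16, 1.74, 1.78, 0.639 and 0.834 CPM in Rg1 plus LPS libraries, against 2.53, 7.16, 13.5, 3.25 and 2.73 CPM in LPS libraries. Controls held 1.94, 2.47, 2.99, 10.8 and 1.99 CPM. LPS replicates 2 and 3 and control replicate 4 lay far above the other libraries. C1qc fell by 2.23 ± 0.588 on the log2 scale against LPS (adjusted p = 0.00584). Without LPS replicates 2 and 3, left out after the data were seen, it no longer passed (adjusted p = 0.0813). For C1qb the call was lost without Rg1 plus LPS replicate 1, 4 or 5 or LPS replicate 2 or 3, at adjusted p = 0.0638 to 0.102.

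Of the soluble regulators, 1 of 5 tested fell in Rg1 plus LPS against LPS, and of the membrane regulators 2 of 8 fell and 1 rose. Among all genes 23.2% passed as lower and 22.2% as higher, and these small counts do not set the regulators apart. C4bp, which encodes the C4b-binding protein, fell in Rg1 plus LPS against LPS by 1.01 ± 0.244 on the log2 scale (adjusted p = 0.00302). Cd59a, which blocks assembly of the membrane attack complex, went the other way. It averaged 84.1 ± 10.3 CPM in Rg1 plus LPS, 60.2 ± 6.63 in LPS and 74.8 ± 1.43 in control libraries. It rose in Rg1 plus LPS against LPS by 0.48 ± 0.0866 on the log2 scale (adjusted p = 0.000266) and fell in LPS against control by 0.315 ± 0.0866 (adjusted p = 0.0142), the only fall of the list there. The large membrane protein Csmd1 fell in Rg1 plus LPS against control by 0.67 ± 0.173 (adjusted p = 0.00617), a call lost with the gene length correction (adjusted p = 0.0571).

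Hc, which encodes C5, averaged 3.97 ± 0.853 CPM in Rg1 plus LPS, 2.14 ± 0.308 in LPS and 2.86 ± 0.513 in control libraries. It rose in Rg1 plus LPS against LPS by 0.89 ± 0.178 on the log2 scale (adjusted p = 0.000684), without overlap. C5a is cleaved from C5, and C5ar1, which senses it, fell in the same comparison. Against control, Hc was higher by 0.47 ± 0.176 (adjusted p = 0.0449). This last call was lost without Rg1 plus LPS replicate 1, 3 or 5 or control replicate 1, 2, 3 or 5, at adjusted p = 0.064 to 0.115. It was also lost with RLE size factors (adjusted p = 0.0503), with no filter on low counts (0.0909) and with only the 2 groups compared in the fit (0.0582). Colec12, a scavenger receptor and collectin, averaged 175 ± 34.5 CPM in Rg1 plus LPS, 255 ± 15.3 in LPS and 290 ± 15.2 in control libraries. It fell by 0.545 ± 0.106 on the log2 scale against LPS and by 0.73 ± 0.106 against control (adjusted p = 0.000525 and 6.87e-05), without overlap in either comparison.

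**Figure D5:**
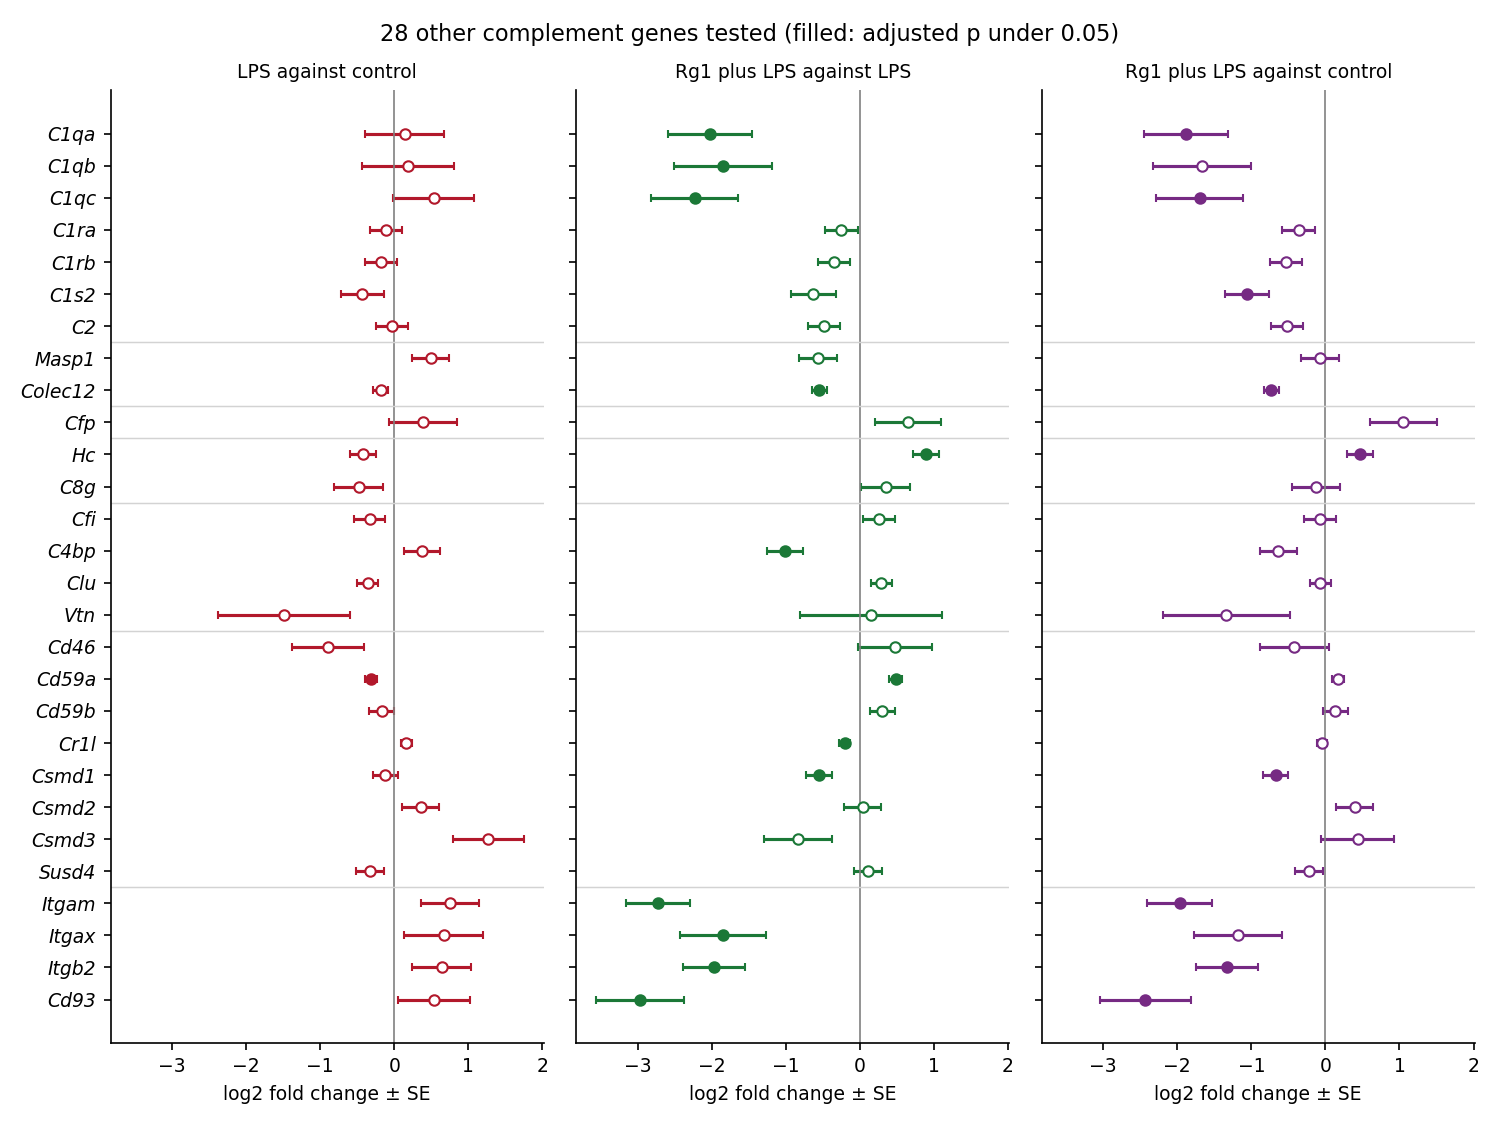
Log2 fold changes of 28 of the 29 other complement genes tested, the remaining one not being shown here, in rows grouped by step of the cascade, for the 3 comparisons, with bars for the SE and filled marks where the adjusted p is under 0.05. In Rg1 plus LPS against LPS all 4 receptor genes lie below 0 and pass, and Hc and Cd59a lie above 0 and pass.

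Microglia, the resident phagocytes of brain, carry complement receptors and C1q, and are a known companion of cultured astrocytes. All 14 microglia and macrophage markers checked were detected in each group. Their summed level was 117.7 to 146.2 CPM in Rg1 plus LPS, 132.7 to 192.8 CPM in LPS and 127.8 to 210.6 CPM in control libraries. The highest sums were in LPS replicates 3 and 2, at 192.8 and 165.5 CPM, and in control replicate 4, at 210.6 CPM. Of the 14 markers, 7 fell in Rg1 plus LPS against LPS, beside 23.2% of all genes. In LPS against control 1 (Spi1) rose, beside 13.8%, and in Rg1 plus LPS against control 4 fell, beside 18.1%. Their part in the differences of C5ar1, C3ar1 and the other receptors and C1q genes was not tested.

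For each complement gene, the most alike profiles were sought over the 15 libraries, by the root mean square difference of log2 CPM after each profile was centred. The search took in 12490 other genes averaging at least 1 CPM (12491 for C5ar1, which averaged less), without predicted or clone names. For C5ar1 the nearest were Cybb at 0.41, Spi1 at 0.43 and Adgre1 at 0.43, beside a spread of C5ar1 itself of 1.49. Cybb encodes a subunit of the phagocyte NADPH oxidase, Spi1 the myeloid factor PU.1 and Adgre1 the macrophage antigen F4/80. Cybb averaged 0.847 ± 0.308 CPM in Rg1 plus LPS, 8.31 ± 3.26 in LPS and 3.04 ± 1.75 in control libraries. For C3ar1 the nearest were Fzd1 at 0.22, Niban1 at 0.23 and Creb3l1 at 0.24, beside a spread of 0.61, and none of these 3 is on the microglia list. Fzd1, a Wnt receptor, averaged 68.3 ± 21.1 CPM in Rg1 plus LPS, 191.5 ± 29.9 in LPS and 117 ± 11.4 in control libraries. The 3 nearest genes of the 2 receptors had no gene in common, which also held for C3 and C4b. The cells that gave these profiles were not tested.

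Distances to the nearest genes were smaller for Serping1, C4b, C1s1 and Cd55 than for C3 and Cfb. For Serping1 (spread 0.499) the nearest were Gap43 at 0.11, Lbp at 0.11 and Slc24a3 at 0.145. For C4b (0.51) they were Mmd2 at 0.12, Cnmd at 0.13 and A2m at 0.15, and for C1s1 (0.503) Tmtc1 at 0.13, Slc24a3 at 0.14 and Tnr at 0.15. Slc24a3 was thus among the nearest of both C1s1 and Serping1. For Cd55 (0.32) they were Adgrl1 at 0.13, Ppic at 0.14 and Cd80 at 0.14. C3 (0.505) had none as near, with Plekha4 at 0.24, Fbln1 at 0.26 and Chil1 at 0.27, and neither had Cfb (1.05), with S1pr3 at 0.46, Icam5 at 0.47 and Oas2 at 0.49. These profiles share library, depth and the differences between libraries described above.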

How the data were processed

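Polyadenylated RNA of 15 libraries was analysed, 5 per group, and groups followed the sample titles. The treatment field of the Rg1 plus LPS group runs from Rg1 to Rg5, and the titles were taken as replicates. Per the labels' protocols, RNA was extracted with TRIzol and library preparation used a VAHTS Universal V6 kit. Builds GRCm38 and mm10 are named in the submitters' processing notes. Which aligner, counting program, annotation and strand setting were used is not given in the sources used here. Raw counts and FPKM per symbol were deposited by the authors. The deposited FPKM equalled the count over the gene length and total, with 1 length per gene, and was used for levels between genes.

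Counts were tested in R 4.3.3 with edgeR 4.0.16. Genes were kept by filterByExpr, scaled by TMM factors and fitted together over all 15 libraries with quasi-likelihood, the group being the only term. Groups were compared in pairs by two-sided tests with Benjamini-Hochberg adjustment over 15362 genes, and calls were made at an adjusted p under 0.05. CPM are counts per M after TMM scaling. Log2 ratios and profiles used log2 CPM with a prior count of 2, and ratios were compared by exact permutation tests. Totals of 34.2 to 41.8 M counts limit the precision of low genes. Depth speaks of counting error only, as reads that PCR copied are no separate molecules.

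The alternatives were RLE size factors, library size only, no filter on low counts, the replicate number as a block, a gene length trend as offset, only the 2 groups compared, DESeq2 1.42.0, limma 3.58.1 with voom, and each library left out in turn. For ratios, a prior count of 0.5 and the log2 of FPKM + 0.1 were also tried. The steps were checked on simulated counts. The 8 genes and the gene lists were chosen with earlier results of these data known. Named were the 8 genes, up to 6 risen and 6 fallen genes of the pathway list per comparison and up to 4 each of the reactive astrocyte list, by adjusted p, the 3 most alike genes of each member, and near-identical copies; a few results under this rule are not reported here. C1qa, C1qb and Itgax were also named, after their values were seen.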

Additional observations from a re-analysis of the deposited data

Results flagged for a closer look

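In 33 groups of 5 libraries (24 of member CPM and the 9 of the ratios), 3 held a library whose gap to the nearest other exceeded Dixon's critical value of 0.71 times the range of the group. Chance flags about 1 in 20 groups.

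C1s1 was 93.36 CPM in LPS replicate 3, against 36.84 to 52.06 CPM in the other LPS libraries. C5ar1 was 1.083 CPM in control replicate 4, against 0.310 to 0.4485 CPM in the other controls. The log2 ratio of C4b over C3 was -2.104 in control replicate 4, against -3.071 to -2.927 in the other controls. Both libraries also had the highest summed astrocyte markers and the highest summed microglia markers of their group, and the part of this in the values was not tested.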

How the results depend on the processing

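No result reversed among values that passed in either of the settings compared; sign changes of differences that passed in neither were not counted. For Rg1 plus LPS against LPS, 4 of 8 complement genes passed under each library left out, and 11 to 14 of the other complement genes. The count of complement genes ranged from 1 to 3 for LPS against control and from 0 to 4 for Rg1 plus LPS against control with 1 library left out. The second count was 1 without Rg1 plus LPS replicate 1 or 4 and 0 without control replicate 4. The other complement genes ranged from 1 to 6 for LPS against control and from 8 to 11 for Rg1 plus LPS against control. The 1 other complement gene called in LPS against control became 2 with library size only, the gene length offset, DESeq2 or voom, 3 with the replicate block and 4 with only the 2 groups compared. Without LPS replicate 3 and control replicate 4, chosen after the data were seen, LPS against control gave 4 complement genes and 4 others, and Rg1 plus LPS against control gave 1 complement gene. Without LPS replicates 2 and 3, also chosen after the data were seen, LPS against control gave 4 complement genes and 6 others. The cause of these moves was not tested.

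The replicate numbers were not taken as pairs, since not every same-numbered pair correlated above 0.1. Correlations of same-numbered deviations ran from -0.222 to 0.155 for LPS and control, 0.05 to 0.424 for Rg1 plus LPS and LPS, and -0.218 to 0.136 for Rg1 plus LPS and control. Between Rg1 plus LPS and LPS, replicates 3, 4 and 5 correlated best with their own number and replicates 1 and 2 did not. With the replicate block, C4b passed as lower in LPS than in control, at -0.65 (adjusted p = 0.0424), and no other call among the 8 genes changed. The ratio of C4b over C3 under the block was 0.402 for Rg1 plus LPS against LPS and -0.519 for LPS against control (adjusted p = 0.281), where the smallest p of 5 sign flips, 0.0625, cannot pass. With 1 library left out these ranged from 0.359 to 0.445 and from -0.577 to -0.336 (adjusted p = 0.0714 at 4 against 5 libraries, where 0.0159 is the smallest exact p, except that the value of -0.336 without control replicate 4 passed at 0.0476). C1s1 over Serping1 ranged from -0.26 to -0.146 for Rg1 plus LPS against control, and the lowest value, without control replicate 4, passed at an adjusted p of 0.0476.

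Library size only moved the median log2 fold change of all genes to 0.14, against 0.03 with TMM factors, in Rg1 plus LPS against LPS. There 4895 genes rose and 2630 fell, against 3412 and 3564. Of LPS against control it gave 1773 risen and 2088 fallen genes, against 2127 and 1508, and of Rg1 plus LPS against control 3869 and 2190, against 2884 and 2787. The A1-type count for Rg1 plus LPS against control was 0 without the filter on low counts and 2 with the gene length offset. For named genes that are not members, 3405 values kept their side of the threshold, 128 passed only under the alternative and 114 only in the main setting. The 3405 include differences that passed in neither setting and changed sign.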

Other observations

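A list of 11 genes known as markers of A1-type reactive astrocytes, among which C3 and complement genes are usually counted, was read beside the complement genes. Of its genes other than members, 10 were tested. In LPS against control, 5 rose and 1 fell, beside 13.8% higher and 9.82% lower among all genes. In Rg1 plus LPS against LPS, 1 rose and 5 fell, beside 22.2% higher and 23.2% lower. In Rg1 plus LPS against control, 1 fell, beside 18.1% lower. That count was 0 without Rg1 plus LPS replicate 4 or control replicate 4 and 2 without Rg1 plus LPS replicate 5. The median log2 fold change was -0.43 in Rg1 plus LPS against LPS, 0.24 in LPS against control and -0.19 in Rg1 plus LPS against control.

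Gbp2, an interferon-induced GTPase, averaged 47.8 ± 19.4 CPM in Rg1 plus LPS, 320.3 ± 98.6 in LPS and 85.1 ± 14.4 in control libraries (SD, n = 5 each). It fell in Rg1 plus LPS against LPS by 2.74 ± 0.284 on the log2 scale and rose in LPS against control by 1.91 ± 0.275 (edgeR adjusted p = 1.77e-06 and 0.000102). Psmb8, a subunit of the immunoproteasome, averaged 13.5 ± 4.46 CPM in Rg1 plus LPS, 31.8 ± 9.58 in LPS and 14.3 ± 3.33 in control libraries. It fell by 1.23 ± 0.249 against LPS and rose by 1.15 ± 0.249 in LPS against control (adjusted p = 0.00089 and 0.0033). Fkbp5, a co-chaperone of steroid receptors, averaged 12.7 ± 2.17 CPM in Rg1 plus LPS, 19.6 ± 2.55 in LPS and 12.9 ± 0.353 in control libraries, and passed in the same directions. Ggta1, a galactosyltransferase, went the other way, at 111 ± 35.6 CPM in Rg1 plus LPS, 62.5 ± 9.67 in LPS and 107 ± 12.4 in control libraries. It rose in Rg1 plus LPS against LPS by 0.835 ± 0.186 and fell in LPS against control by 0.78 ± 0.186 (adjusted p = 0.00186 and 0.00646).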
